A study of Saccharomyces cerevisiae with 12 samples.

Results

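The 45 genes described here encode assembly factors of the large (60S) ribosomal subunit of Saccharomyces cerevisiae. They are a list of open reading frames chosen by name for their role, at a time when earlier results of these data were known. All 45 were found among the 7112 gene identifiers kept from the deposited table, and all 45 passed the filter on low counts, as 6361 identifiers did. They lie on 15 chromosomes, are 546 to 14733 bp long, and 44 of them have 1 coding exon.

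Ribosomal RNA (rRNA) of the large subunit is cut from a long precursor in the nucleolus, folded, modified and joined to ribosomal proteins. Assembly factors do this work and leave the particle in a set order. GTPases, RNA helicases and the AAA ATPase Mdn1 drive the steps, scaffold proteins hold the rRNA domains, and late factors escort the particle out of the nucleus. In yeast the genes for these factors are known as the ribosome biogenesis regulon, which is high in growing cells and shut down together in stress. Many of their promoters carry 2 motifs, PAC and RRPE. PAC is bound by the repressors Dot6 and Tod6, and RRPE by the repressor Stb3.

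RNA came from 6 strains of the background MGD353-13D, grown in rich medium (YPD) and collected in mid log phase, with 2 libraries of each strain. The wild type (WT) was compared with a deletion of SDC1 (Sdc1_KO), a deletion of the DPY30 motif within SDC1 (Dpy30_KO) and an SDC1 point mutant (Sdc1_mut). SDC1 encodes a subunit of the Set1 complex, which methylates lysine 4 of histone H3. A further strain lacked JHD2 (Jhd2_KO), which encodes the demethylase of that lysine, and the last carried the point mutation and the JHD2 deletion together (Sdc1_mut_Jhd2_KO, called the double mutant below). The labels do not say which residue was mutated, whether other alleles are shared, or whether the 2 libraries of a strain came from separate clones or cultures, so the p-values measure the spread between libraries only.

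Libraries held 8652878 to 26041718 fragments. Levels are CPM, counts scaled to the library's TMM-adjusted size, always with replicate 1 before replicate 2. Each fold change is on the log2 scale, ± its standard error, and a gene was called higher or lower at an adjusted p under 0.05 over all 6361 genes (edgeR quasi-likelihood test, Benjamini-Hochberg). SDC1 had 0 fragments in both Sdc1_KO libraries, and JHD2 had 0 in both Jhd2_KO and both double mutant libraries. Fragments of mitochondrially encoded genes made up 0.093% and 0.207% of the WT libraries, 0.312% and 0.207% of Sdc1_KO and 0.266% and 0.24% of Jhd2_KO. They numbered at most 12 in any library of Dpy30_KO, Sdc1_mut and the double mutant. The summed level of 6 a-specific mating genes also split the strains, at 471 and 474 CPM in WT and 375 and 517 CPM in Sdc1_KO, against 167 to 255 CPM in Dpy30_KO, Sdc1_mut and the double mutant. Their summed level was 514 and 553 CPM in Jhd2_KO. Within this list Sdc1_KO went both ways, with 1 gene called higher (28% of all genes) and 2 lower (22.4%). STE2 had 172 and 243 CPM there against 136 and 146 in WT, and AGA2 14.1 and 30.9 against 47.2 and 44.1. The sum of 4 alpha-specific genes ran from 43.8 to 79.5 CPM, highest in the double mutant, and no gene of either list was at 0 in any library. That sum was mostly SAG1, at 38.3 and 38.2 CPM in WT. MF(ALPHA)1 had 0.38 and 0.251 CPM in WT and 2.09 to 4.95 in the SDC1 mutants. STE3 had 1.41 and 1.84 CPM in WT, 4.63 to 10.4 in the SDC1 mutants and 6.47 and 3.4 in Jhd2_KO. MF(ALPHA)2 changed less, from 3.84 and 3.52 CPM in WT to 3.92 to 7.34 in the SDC1 mutants. What part the mitochondrial or the mating gene differences had in the results below was not tested.

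Sequence shared by the promoters is shown before the levels. The window ran from 250 bases before to 50 after the start of each gene in the R64 genome (RefSeq), and in all 45 genes that start was an ATG. The 4 promoters printed here belong to RSA4, which rose most, to MDN1 and NIP7, and to NOG1, which fell in Jhd2_KO. MDN1 and NIP7 went opposite ways from Sdc1_mut to the double mutant. Capitals mark the matches to the PAC core GATGAG and the RRPE core AAAATTT on either strand. An RRPE match on both strands reads AAAATTTT and was counted as 1 site.
RSA4, chrIII:242303-242602, minus strand: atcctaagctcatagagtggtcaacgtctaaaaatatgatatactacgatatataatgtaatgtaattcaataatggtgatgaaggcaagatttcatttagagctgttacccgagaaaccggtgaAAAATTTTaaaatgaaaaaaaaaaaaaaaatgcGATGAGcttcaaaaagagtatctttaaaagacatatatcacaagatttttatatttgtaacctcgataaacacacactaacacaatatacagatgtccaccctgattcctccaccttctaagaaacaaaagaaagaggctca
MDN1, chrXII:363689-363988, minus strand: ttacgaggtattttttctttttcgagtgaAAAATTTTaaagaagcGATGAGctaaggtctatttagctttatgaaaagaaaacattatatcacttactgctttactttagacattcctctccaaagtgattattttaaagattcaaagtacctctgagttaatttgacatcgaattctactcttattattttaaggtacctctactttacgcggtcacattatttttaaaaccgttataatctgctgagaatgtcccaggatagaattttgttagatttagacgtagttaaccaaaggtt
NIP7, chrXVI:153245-153544, plus strand: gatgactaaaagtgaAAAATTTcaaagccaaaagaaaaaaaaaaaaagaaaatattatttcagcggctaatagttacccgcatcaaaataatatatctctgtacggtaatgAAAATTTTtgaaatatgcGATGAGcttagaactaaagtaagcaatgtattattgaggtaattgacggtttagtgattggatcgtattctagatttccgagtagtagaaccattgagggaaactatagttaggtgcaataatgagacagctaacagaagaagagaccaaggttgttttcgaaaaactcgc
NOG1, chrXVI:370728-371027, plus strand: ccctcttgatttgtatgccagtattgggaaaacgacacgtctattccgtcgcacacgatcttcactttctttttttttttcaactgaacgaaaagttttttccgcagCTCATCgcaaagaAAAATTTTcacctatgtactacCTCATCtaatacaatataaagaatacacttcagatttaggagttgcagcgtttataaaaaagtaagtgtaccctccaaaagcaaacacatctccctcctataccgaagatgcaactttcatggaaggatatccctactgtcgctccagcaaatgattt

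The PAC core was present in 41 of the 45 promoters (91.1%), against 1222 of 6001 promoters of protein-coding genes (20.4%). The RRPE core was present in 43 (95.6%), against 23.2% of all promoters. Both cores were found in 39 (86.7%), against 7.7% of all promoters, and no member lacked both, against 64.2%. With only the bases before the start, the shares were 88.9% for PAC and 95.6% for RRPE, against 17.0% and 21.7% of all promoters. MAK5 and RRP1 had PAC without RRPE, while RIX1, IPI1, NSA1 and NOP53 had RRPE without PAC. A match is a run of letters, and no binding was measured here.

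The sites also had an order. In the printed RSA4 promoter the RRPE core starts at -125 and the PAC core at -92 from the gene start. The PAC sites before the start, 50 of 53, had a median position of -119, and 84.0% of them began between -150 and -50. The 59 RRPE sites lay farther out, at a median of -141. Where both cores were present, the RRPE core was the upstream one of the nearest pair in 33 of 39 members (84.6%) and in 256 of 426 other promoters (60.1%). The nearest pair was a median of 10 bases apart in members and 21.5 in the others.

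**Figure D1:**
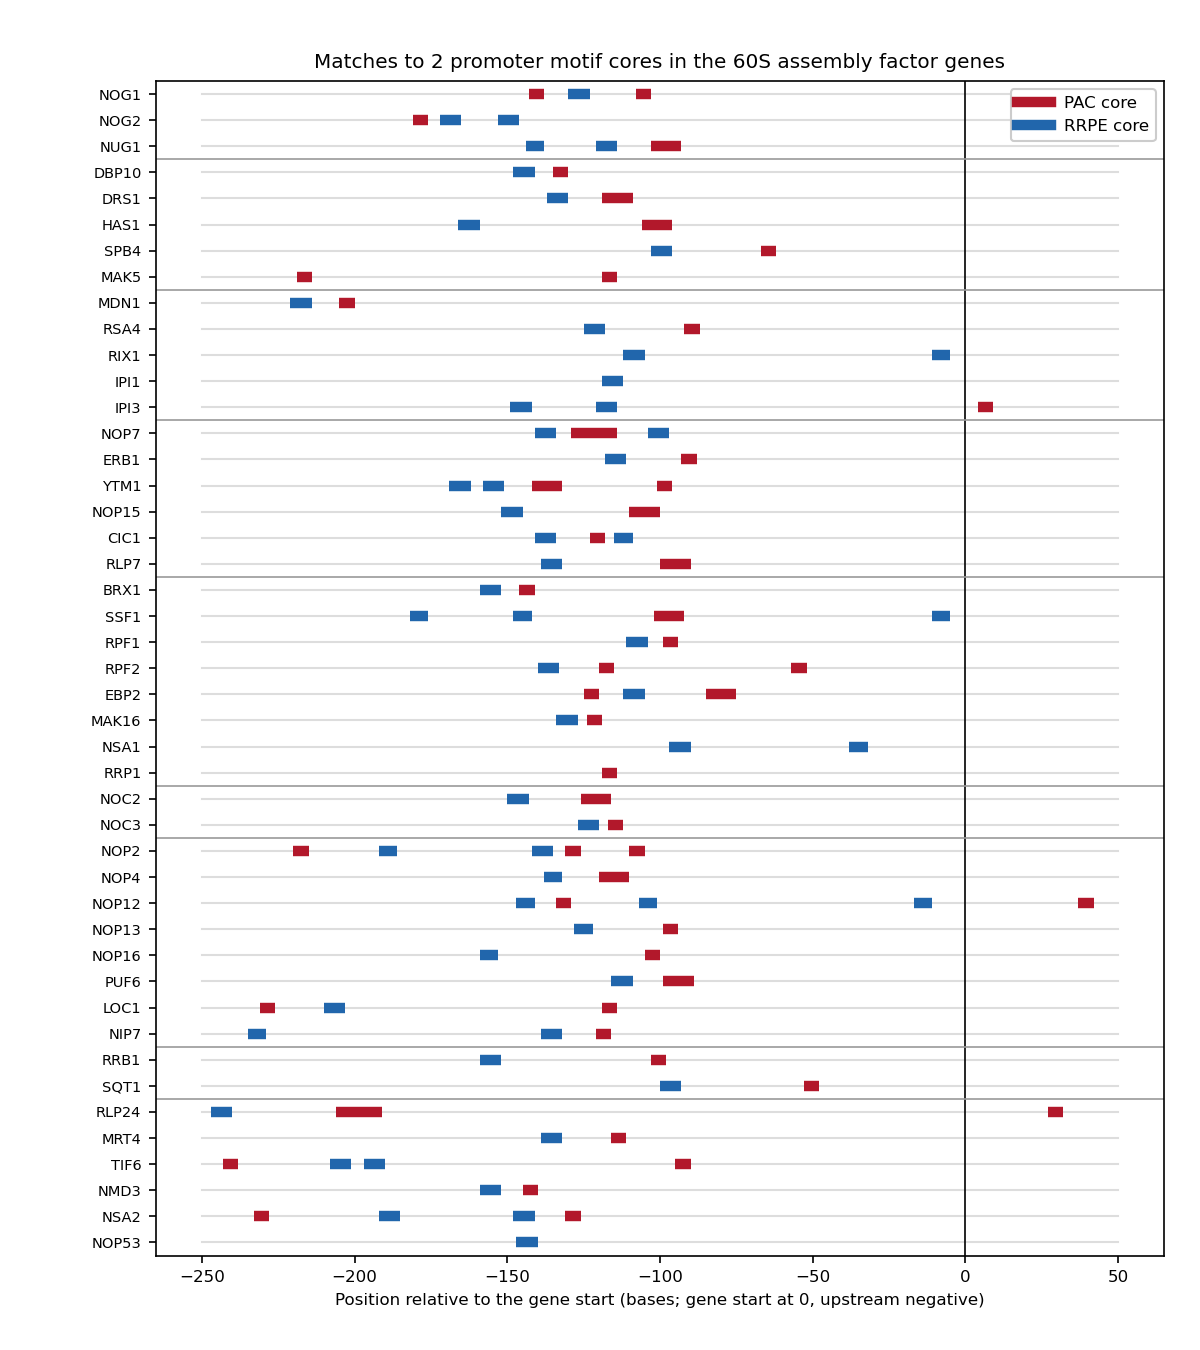
Positions of PAC core (red) and RRPE core (blue) matches in the 45 promoters, in bases from the gene start at 0, with 1 line per gene and horizontal rules between roles. Most PAC sites lie between -150 and -50, and RRPE sites mostly lie to their left.

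In every strain with a changed SDC1, most of these genes were higher than in WT, and none was lower. In Sdc1_KO 36 of the 45 were higher, where 28% of all genes tested were called higher and 22.4% lower (50.4% in all), and the members' median log2 fold change was 0.90 against 0.04 for all genes. In Dpy30_KO 44 were higher (27.2% of all genes, and 52.4% called in either direction), with a median of 1.04. In Sdc1_mut all 45 were higher (27.9% of all genes), with a median of 1.37. In the double mutant 35 were higher (29.1% of all genes, with 30.1% lower), with a median of 0.81. The median of all genes lay between 0.00 and 0.04 in these comparisons.

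Of the 45 genes, 28 were higher in all 4 strains and 15 in 3 of them, while NOP16 was higher in 2 and RIX1 in 1. The share of all genes called higher in several of these strains was not counted, so these joint counts have no background beside them. At least 2-fold rises were called for 17 members in Sdc1_KO (7.66% of all genes), 25 in Dpy30_KO (8.43%), 30 in Sdc1_mut (9.07%) and 13 in the double mutant (11.2%, or 16.1% in either direction). The members together took 0.523% and 0.585% of all fragments in the WT libraries, and 0.751% and 0.823% in Sdc1_KO. Their share was 1.01% and 0.931% in Dpy30_KO, 1.16% and 1.13% in Sdc1_mut, and 1.04% and 1.12% in the double mutant. In Jhd2_KO it was 0.414% and 0.434%, below both WT libraries. All 4 comparisons use the same 2 WT libraries, and WT replicate 2 was above replicate 1 in 40 of the 45 genes, by a median of 0.24.

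**Figure D2:**
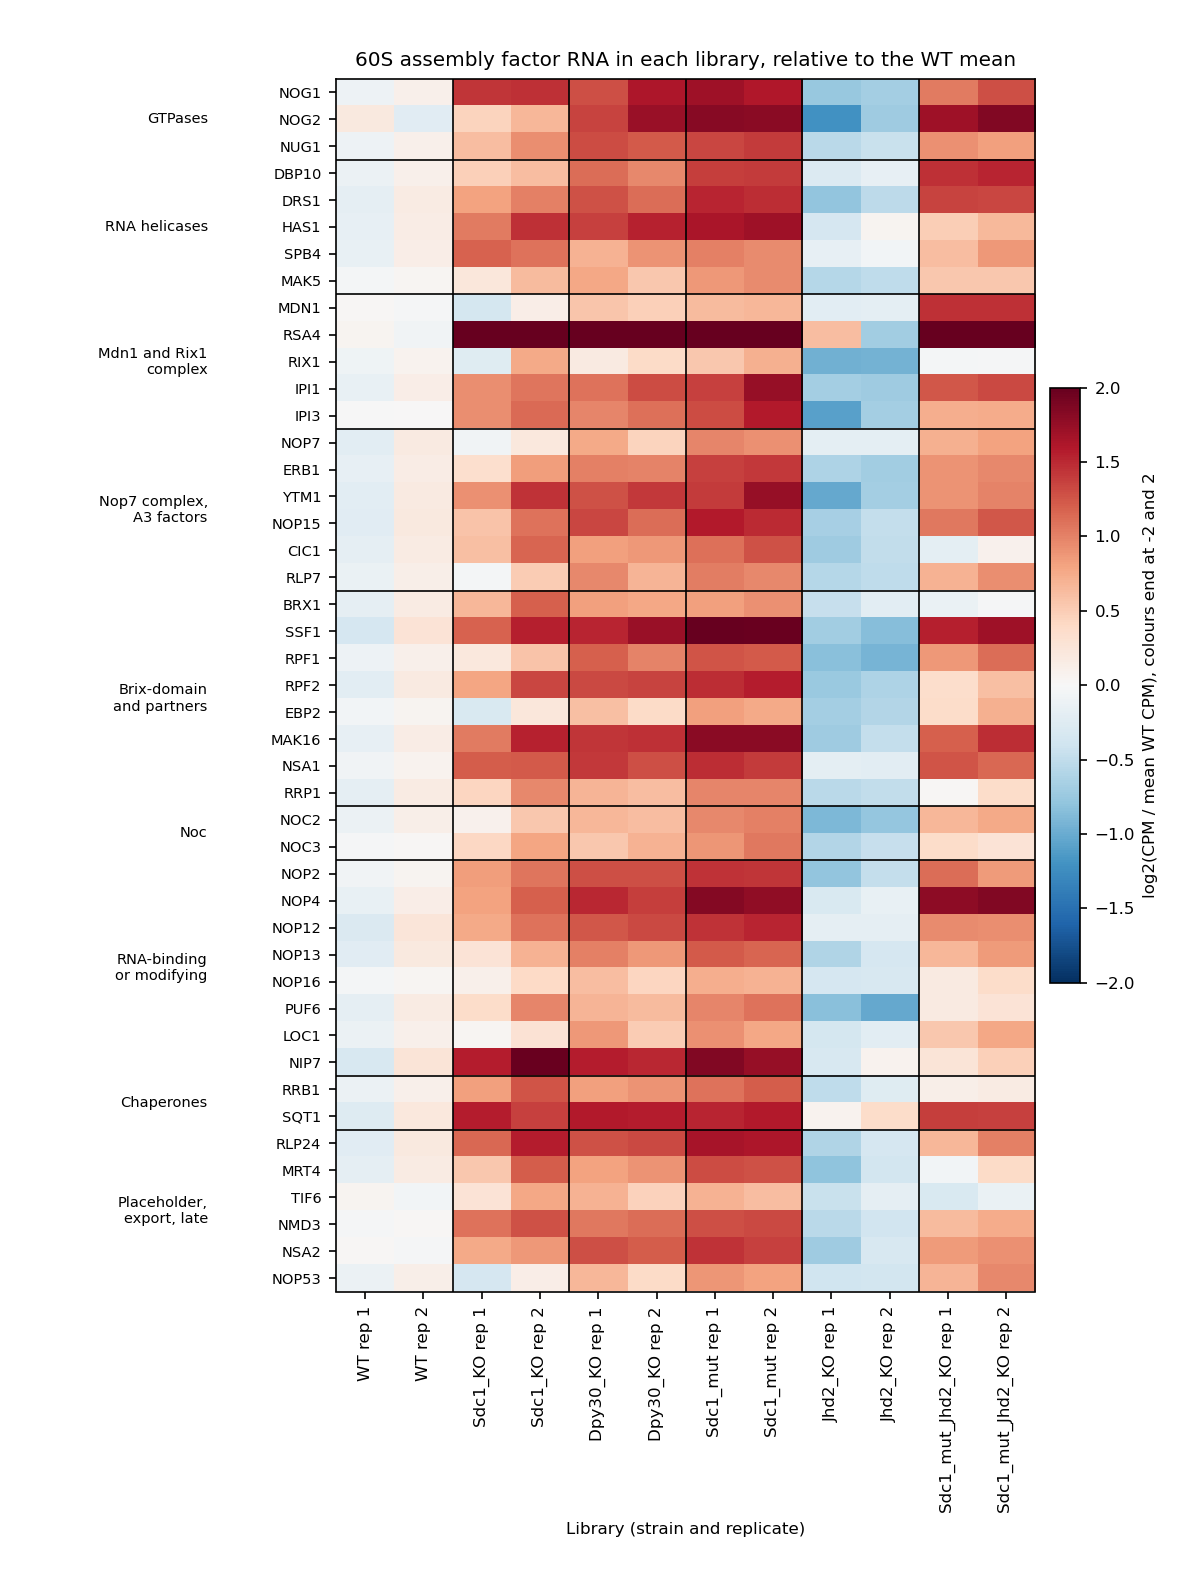
Level of each of the 45 genes in each of the 12 libraries, as log2 of its CPM over the mean WT CPM, with red above and blue below WT and black rules between roles and strains. Red fills the Sdc1_mut columns, and blue fills most of the Jhd2_KO columns.

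**Figure D3:**
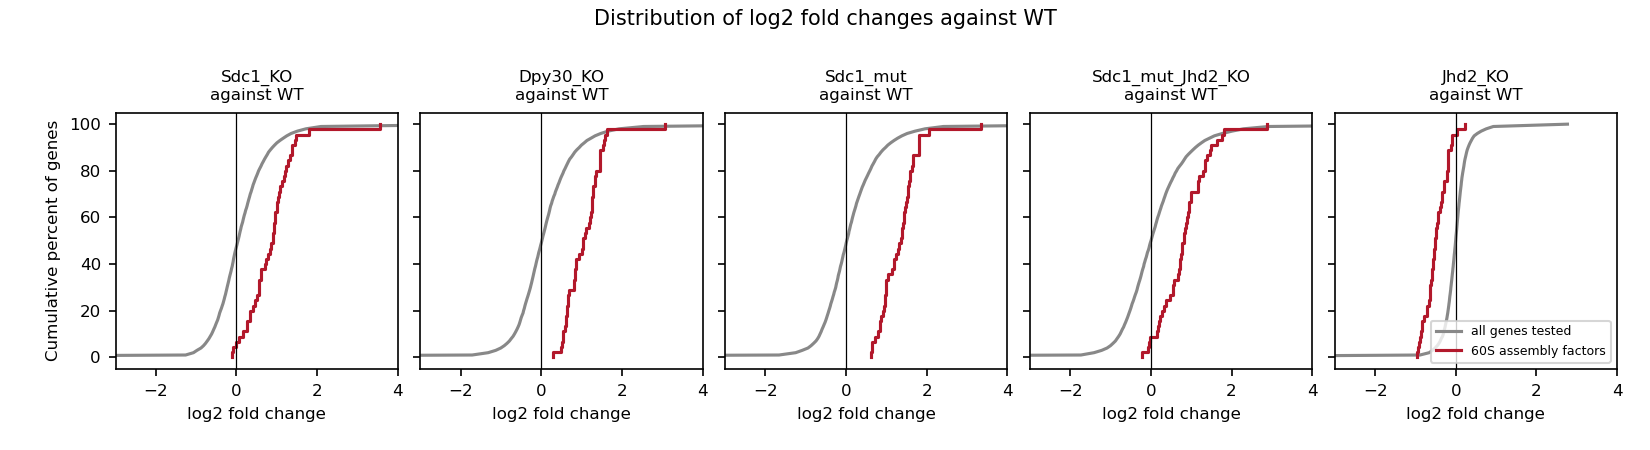
Cumulative percent of genes against log2 fold change over WT, for the 45 members (red) and all 6361 genes tested (grey), with 1 panel for each strain. Over most of its range the red curve lies to the right of the grey one in the 4 strains with a changed SDC1, and to its left in Jhd2_KO.

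In Jhd2_KO the same genes leaned the other way. Called lower were 10 of the 45, where 0.88% of all genes were, and none was called higher (0.755% of all genes, so 1.63% were called in all). No member was called at 2-fold or more (0.252% of all genes). The 10 were NOG1, NOG2, DRS1, IPI3, ERB1, RPF1, NOC2, NOP2, PUF6 and NMD3, with adjusted p from 0.013 to 0.049. Of the 45, 43 had a negative log2 fold change, with a median of -0.51 against 0.00 for all genes. An unadjusted p under 0.05 in the same test was found for 31 members, all lower, and for 1078 of all 6361 genes in either direction. In 37 members both Jhd2_KO libraries lay below both WT libraries, which 27.6% of all genes did. The number of calls moved with the method, to 15 with limma-trend, 24 with DESeq2 and 30 with only WT and Jhd2_KO in the fit, and to 5 with limma on log2(FPKM + 1). It also moved with single libraries: 0 members passed without WT replicate 2, without Jhd2_KO replicate 1 or without Jhd2_KO replicate 2, and 5 passed without WT replicate 1. The median stayed between -0.39 and -0.65 when any of these libraries was left out.

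The 3 GTPases rose in all 4 strains with a changed SDC1. Nog1 joins particles in the nucleolus and stays on them into the cytoplasm. NOG1 (YPL093W) had 21.6 and 24.9 CPM in WT, 62.6 and 64.1 in Sdc1_KO, 56.8 and 71.5 in Dpy30_KO, 75.2 and 70.5 in Sdc1_mut, 13.8 and 14.5 in Jhd2_KO and 47.9 and 57 in the double mutant. Its libraries lay above WT in the 4 strains and below WT in Jhd2_KO, with a fold change of 1.65 ± 0.13 in Sdc1_mut (adjusted p = 1.1e-06) and -0.72 ± 0.14 in Jhd2_KO (adjusted p = 0.034). Nog2 sits where the export adaptor Nmd3 later binds. For NOG2 (YNR053C) the levels were 27.7 and 20.5 CPM in WT, 32.8 and 38.1 in Sdc1_KO, 61.3 and 80.1 in Dpy30_KO, 85.4 and 84.4 in Sdc1_mut, 10.4 and 14.8 in Jhd2_KO and 78 and 87.2 in the double mutant. It was the GTPase with the widest range, rising by 0.55 ± 0.17 in Sdc1_KO and by 1.81 ± 0.17 in Sdc1_mut, and again no mutant library overlapped WT. The snoRNA gene SNR191 lies inside the NOG2 gene on the same strand, over 13.7% of its length, so NOG2 counts are uncertain. Nug1, the third, is a nuclear GTPase. NUG1 (YER006W) stood at 154 and 177 CPM in WT, 255 and 316 in Sdc1_KO, 410 and 386 in Dpy30_KO, 418 and 434 in Sdc1_mut, 114 and 121 in Jhd2_KO and 312 and 291 in the double mutant. Both Jhd2_KO libraries were below WT, but its fold change there, -0.50 ± 0.12, missed the threshold (adjusted p = 0.054).

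All 5 DEAD-box RNA helicases, which unwind or remodel pre-rRNA, rose in each of the 4 strains. DRS1 (YLL008W) was measured at 102 and 130 CPM in WT, 202 and 232 in Sdc1_KO, 279 and 251 in Dpy30_KO, 334 and 323 in Sdc1_mut, 66.9 and 80.8 in Jhd2_KO and 295 and 293 in the double mutant. Its groups did not overlap WT in any strain, and it fell by 0.65 ± 0.13 in Jhd2_KO (adjusted p = 0.034). HAS1 (YMR290C), whose product also works on the small subunit, had levels of 41.1 and 50.7 CPM in WT, 93.9 and 127 in Sdc1_KO, 118 and 134 in Dpy30_KO, 142 and 148 in Sdc1_mut, 36.2 and 47.8 in Jhd2_KO and 64.4 and 72.2 in the double mutant. Its Jhd2_KO libraries overlapped WT, and the double mutant lay well below the other SDC1 mutants, a difference taken up further on. MAK5 (YBR142W) had 103 and 108 CPM in WT, 124 and 164 in Sdc1_KO, 180 and 154 in Dpy30_KO, 192 and 204 in Sdc1_mut, 70.9 and 74.4 in Jhd2_KO and 154 and 153 in the double mutant. All 4 SDC1 mutants lay above WT and Jhd2_KO below it, and MAK5 rose least of the helicases in each of the 4, by 0.45 ± 0.12 in Sdc1_KO and 0.91 ± 0.12 in Sdc1_mut. DBP10 (YDL031W) rose by 0.55 ± 0.11 in Sdc1_KO and 1.39 ± 0.11 in Sdc1_mut, and SPB4 (YFL002C) by 1.13 ± 0.12 and 0.97 ± 0.12.

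The Mdn1 ATPase and the Rix1 complex act together, Mdn1 pulling on Rsa4 to strip factors from the nuclear particle. RSA4 (YCR072C) rose most of all 45 genes, and Rsa4 is the handle that Mdn1 grips. RSA4 read 2.51 and 2.3 CPM in WT, 31.3 and 26.2 in Sdc1_KO, 14.9 and 25.6 in Dpy30_KO, 22.8 and 26.1 in Sdc1_mut, 3.7 and 1.49 in Jhd2_KO and 17.6 and 18.3 in the double mutant. All libraries of the 4 SDC1 mutants lay above WT, and the Jhd2_KO libraries lay on both sides of it. Its fold changes were 3.57 ± 0.29 in Sdc1_KO (adjusted p = 3.2e-06), 3.06 ± 0.29 in Dpy30_KO, 3.34 ± 0.29 in Sdc1_mut and 2.89 ± 0.29 in the double mutant. RSA4 was also the member with the lowest WT level per length, 1.35 ± 0.142 FPKM (SD, n = 2), from 66 and 55 fragments, while the next lowest, IPI1 (YHR085W), stood at 9.94 FPKM and the members' median at 62.0 FPKM. The rise brought RSA4 to 15.4 ± 2.25 FPKM in Sdc1_KO, a strain in which the genes beside it also rose, as given at the end.

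MDN1 (YLR106C), the longest gene of the set at 14733 bp, behaved otherwise. MDN1 had 1100 and 1060 CPM in WT, 843 and 1180 in Sdc1_KO, 1580 and 1510 in Dpy30_KO, 1670 and 1710 in Sdc1_mut, 933 and 947 in Jhd2_KO and 2970 and 2970 in the double mutant. Its Sdc1_KO libraries overlapped WT (fold change -0.10 ± 0.14), and its double mutant libraries were the highest of all 12. RIX1 (YHR197W), whose product gives the Rix1 complex its name, had 34 and 38 CPM in WT, 30.6 and 60.6 in Sdc1_KO, 40.9 and 46.9 in Dpy30_KO, 52.3 and 59.1 in Sdc1_mut, 18.4 and 18.7 in Jhd2_KO and 35.2 and 35.6 in the double mutant. Its Sdc1_KO libraries lay on either side of WT, and of the rises only that in Sdc1_mut was called, 0.63 ± 0.22 (adjusted p = 0.029), a call lost without any of the 4 libraries of that comparison. IPI3 (YNL182C), its partner, stood at 16.8 and 17.1 CPM in WT, 32.4 and 37.2 in Sdc1_KO, 33.4 and 36.4 in Dpy30_KO, 41.8 and 51 in Sdc1_mut, 7.98 and 10.6 in Jhd2_KO and 27.9 and 28.2 in the double mutant. Those levels were above WT in the 4 strains, and the fall in Jhd2_KO was -0.85 ± 0.16 (adjusted p = 0.021). IPI1, the remaining subunit, rose by 1.01 ± 0.16 in Sdc1_KO and 1.58 ± 0.16 in Sdc1_mut.

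Nop7, Erb1 and Ytm1 form a complex on early particles, and Nop15, Cic1 and Rlp7 belong with them to the A3 factors, which are needed to process the first internal spacer of the precursor. All 6 genes rose in Dpy30_KO and Sdc1_mut, 5 in the double mutant and 4 in Sdc1_KO. NOP7 (YGR103W), among the highest members, had 616 and 810 CPM in WT, 676 and 824 in Sdc1_KO, 1200 and 976 in Dpy30_KO, 1410 and 1350 in Sdc1_mut, 623 and 626 in Jhd2_KO and 1170 and 1250 in the double mutant. Its Sdc1_KO libraries overlapped WT, and it rose by 0.95 ± 0.15 in Sdc1_mut. ERB1 (YMR049C) was found at 94.7 and 118 CPM in WT, 134 and 189 in Sdc1_KO, 214 and 212 in Dpy30_KO, 275 and 284 in Sdc1_mut, 69.7 and 65.6 in Jhd2_KO and 199 and 207 in the double mutant. It lay above WT in the 4 SDC1 mutants and fell by 0.65 ± 0.15 in Jhd2_KO, the weakest of the 10 calls there (adjusted p = 0.049). YTM1 (YOR272W), whose product Mdn1 also removes, showed 23.7 and 31 CPM in WT, 51.7 and 74.5 in Sdc1_KO, 65.8 and 73.1 in Dpy30_KO, 71.9 and 91.7 in Sdc1_mut, 13.4 and 17 in Jhd2_KO and 50.8 and 54.6 in the double mutant. The 4 SDC1 mutants lay above WT, and its rises of 1.21 ± 0.18 in Sdc1_KO and 1.58 ± 0.18 in Sdc1_mut were the largest of the 6. CIC1 (YHR052W) levels were 28.5 and 36.1 CPM in WT, 49.1 and 72.7 in Sdc1_KO, 56.9 and 59 in Dpy30_KO, 69.1 and 78 in Sdc1_mut, 19.7 and 23 in Jhd2_KO and 28.3 and 34.4 in the double mutant. They were above WT in the 3 single SDC1 mutants and overlapped WT in the double mutant. NOP15 (YNL110C) rose by 0.86 ± 0.17 in Sdc1_KO and 1.54 ± 0.17 in Sdc1_mut. RLP7 (YNL002C), with 0.26 ± 0.16 in Sdc1_KO (adjusted p = 0.21), was not called there and rose by 1.00 ± 0.17 in Sdc1_mut.

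Brix-domain proteins bind rRNA as partners of other factors, Brx1 with Ebp2 and Rpf1 with Mak16. All 8 genes of this group rose in Dpy30_KO and Sdc1_mut. SSF1 (YHR066W) rose most, at 15.9 and 24.3 CPM in WT, 45.7 and 58.8 in Sdc1_KO, 57.9 and 66.2 in Dpy30_KO, 87.4 and 79.4 in Sdc1_mut, 12.4 and 11.1 in Jhd2_KO and 58.9 and 65.2 in the double mutant. Its groups did not overlap WT in any strain, and it rose by 2.05 ± 0.18 in Sdc1_mut. SSF1 has a near copy, SSF2, with 92.2% identity over its length. How reads matching both genes were counted is not given, so SSF1 values are uncertain. SSF2 had 20.6 and 27.5 CPM in WT and 77.6 and 72.5 in Sdc1_mut. RPF1 (YHR088W) gave 48.3 and 55.7 CPM in WT, 60.1 and 77.2 in Sdc1_KO, 119 and 103 in Dpy30_KO, 124 and 122 in Sdc1_mut, 29.2 and 27.4 in Jhd2_KO and 95.3 and 113 in the double mutant. It rose least of the 4 SDC1 mutants in Sdc1_KO, 0.40 ± 0.13, and its fall of -0.88 ± 0.14 in Jhd2_KO had an adjusted p of 0.013. RPF2 (YKR081C), needed to load the 5S rRNA particle, was at 33 and 43 CPM in WT, 65.5 and 96.1 in Sdc1_KO, 94.6 and 96.6 in Dpy30_KO, 106 and 113 in Sdc1_mut, 22.7 and 24.9 in Jhd2_KO and 48.7 and 57.5 in the double mutant. All 4 SDC1 mutants were above WT, the double mutant least. EBP2 (YKL172W) had the highest WT level of the 45 genes per length (548 ± 17.7 FPKM, SD, n = 2), with 438 and 474 CPM in WT, 368 and 532 in Sdc1_KO, 692 and 595 in Dpy30_KO, 809 and 770 in Sdc1_mut, 286 and 304 in Jhd2_KO and 590 and 748 in the double mutant. It overlapped WT in Sdc1_KO (-0.02 ± 0.16) and rose by 0.79 ± 0.16 in Sdc1_mut. In Sdc1_mut the rises of the other 4 were 1.80 ± 0.16 for MAK16 (YAL025C), 1.43 ± 0.09 for NSA1 (YGL111W), 0.98 ± 0.17 for RRP1 (YDR087C) and 0.86 ± 0.16 for BRX1 (YOL077C). In the double mutant BRX1 was at -0.08 ± 0.16 and RRP1 at 0.21 ± 0.17, neither called.

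Noc proteins pair up and travel with the particle from nucleolus to nucleoplasm. NOC2 (YOR206W) had 148 and 174 CPM in WT, 171 and 233 in Sdc1_KO, 255 and 248 in Dpy30_KO, 315 and 325 in Sdc1_mut, 86 and 94.4 in Jhd2_KO and 256 and 271 in the double mutant. Its Sdc1_KO libraries overlapped WT by a narrow margin (0.33 ± 0.13, adjusted p = 0.057), and in Jhd2_KO it fell by 0.83 ± 0.14 (adjusted p = 0.013). NOC3 (YLR002C) stood at 43.4 and 45.3 CPM in WT, 59.1 and 77 in Sdc1_KO, 64.6 and 72 in Dpy30_KO, 81.5 and 92.2 in Sdc1_mut, 29.5 and 32.3 in Jhd2_KO and 57.4 and 53.6 in the double mutant. It was above WT in the 4 SDC1 mutants and rose least in the double mutant, 0.32 ± 0.12, a call lost without WT replicate 1, WT replicate 2 or either double mutant library.

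RNA-binding and RNA-modifying factors made up 8 of the genes, and all 8 rose in Dpy30_KO and Sdc1_mut. NOP2 (YNL061W), which methylates a cytosine of the large rRNA, had 111 and 121 CPM in WT, 206 and 244 in Sdc1_KO, 285 and 282 in Dpy30_KO, 317 and 313 in Sdc1_mut, 67.4 and 83.7 in Jhd2_KO and 252 and 210 in the double mutant. It lay apart from WT in every strain and fell by 0.62 ± 0.13 in Jhd2_KO (adjusted p = 0.037). NOP4 (YPL043W), with several RNA recognition motifs, was at 110 and 135 CPM in WT, 214 and 280 in Sdc1_KO, 349 and 320 in Dpy30_KO, 437 and 419 in Sdc1_mut, 98.7 and 111 in Jhd2_KO and 424 and 441 in the double mutant. Its rises of 1.81 ± 0.14 in Sdc1_mut and 1.82 ± 0.14 in the double mutant were nearly equal. NOP16 (YER002W) changed least of all 45 genes by mean absolute fold change, with 143 and 152 CPM in WT, 159 and 194 in Sdc1_KO, 227 and 199 in Dpy30_KO, 245 and 240 in Sdc1_mut, 117 and 118 in Jhd2_KO and 167 and 191 in the double mutant. It was called higher in Dpy30_KO (0.53 ± 0.11) and Sdc1_mut (0.72 ± 0.11), although both libraries of the other 2 SDC1 mutants were also above WT.

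PUF6 (YDR496C), which with Loc1 also acts on the localized ASH1 mRNA, had 74 and 94.1 CPM in WT, 108 and 165 in Sdc1_KO, 134 and 131 in Dpy30_KO, 165 and 178 in Sdc1_mut, 47.2 and 41.4 in Jhd2_KO and 95 and 102 in the double mutant. It had the largest fall of the called genes in Jhd2_KO, -0.93 ± 0.18 (adjusted p = 0.025). NIP7 (YPL211W), the shortest gene of the set at 546 bp, showed 15.7 and 23.5 CPM in WT, 58.4 and 77.1 in Sdc1_KO, 57.9 and 55.7 in Dpy30_KO, 71.1 and 65.6 in Sdc1_mut, 15.7 and 20.6 in Jhd2_KO and 23.4 and 27.3 in the double mutant. The 3 single SDC1 mutants were far above WT, while the double mutant overlapped WT by a narrow margin. In Sdc1_mut NOP12 (YOL041C) rose by 1.49 ± 0.15, NOP13 (YNL175C) by 1.19 ± 0.16 and LOC1 (YFR001W) by 0.84 ± 0.14, and LOC1 was not called in Sdc1_KO (0.16 ± 0.14).

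Rrb1 and Sqt1 are chaperones that each escort a ribosomal protein, Rpl3 and Rpl10. RRB1 (YMR131C) stood at 92.7 and 108 CPM in WT, 177 and 239 in Sdc1_KO, 178 and 187 in Dpy30_KO, 213 and 232 in Sdc1_mut, 70.6 and 84.4 in Jhd2_KO and 109 and 113 in the double mutant. It rose by 1.05 ± 0.14 in Sdc1_KO and 1.15 ± 0.14 in Sdc1_mut. SQT1 (YIR012W) was at 38.6 and 53.3 CPM in WT, 137 and 118 in Sdc1_KO, 138 and 137 in Dpy30_KO, 132 and 138 in Sdc1_mut, 48.5 and 59.2 in Jhd2_KO and 120 and 119 in the double mutant. It was raised by nearly the same amount in all 4 SDC1 mutants, 1.47 ± 0.14, 1.58 ± 0.14, 1.56 ± 0.14 and 1.38 ± 0.14, and in Jhd2_KO its fold change was positive, 0.24 ± 0.14, without a call.

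Among the late factors, Rlp24 and Mrt4 hold the places of ribosomal proteins, Tif6 keeps the subunits apart, and Nmd3 is the export adaptor. RLP24 (YLR009W) had 32.7 and 44.1 CPM in WT, 84.8 and 114 in Sdc1_KO, 92.4 and 95.7 in Dpy30_KO, 121 and 118 in Sdc1_mut, 25.4 and 30.3 in Jhd2_KO and 60.8 and 77 in the double mutant. It lay above WT in the 4 SDC1 mutants, with the rise of 1.64 ± 0.17 in Sdc1_mut the largest of these late factors. MRT4 (YKL009W) stood at 55.3 and 69.7 CPM in WT, 90.7 and 144 in Sdc1_KO, 109 and 116 in Dpy30_KO, 154 and 151 in Sdc1_mut, 35.8 and 48.5 in Jhd2_KO and 59.9 and 81.8 in the double mutant. The double mutant overlapped WT, and the 2 Sdc1_KO libraries were far apart. TIF6 (YPR016C) gave 117 and 109 CPM in WT, 136 and 194 in Sdc1_KO, 182 and 156 in Dpy30_KO, 182 and 173 in Sdc1_mut, 83.2 and 99.7 in Jhd2_KO and 91.7 and 103 in the double mutant. It was the only member with both double mutant libraries below both WT libraries, without a call (-0.22 ± 0.15, adjusted p = 0.23). NMD3 (YHR170W) was measured at 81.1 and 83 CPM in WT, 174 and 198 in Sdc1_KO, 170 and 178 in Dpy30_KO, 200 and 204 in Sdc1_mut, 56.5 and 63.1 in Jhd2_KO and 127 and 137 in the double mutant. It was separated from WT in all 5 strains and fell by 0.45 ± 0.10 in Jhd2_KO (adjusted p = 0.043). NSA2 (YER126C) rose by 0.82 ± 0.11 in Sdc1_KO and 1.40 ± 0.11 in Sdc1_mut. NOP53 (YPL146C), which recruits the exosome to trim the spacer, was at -0.08 ± 0.16 in Sdc1_KO, not called, and rose by 0.84 ± 0.16 in Sdc1_mut.

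**Figure D4:**
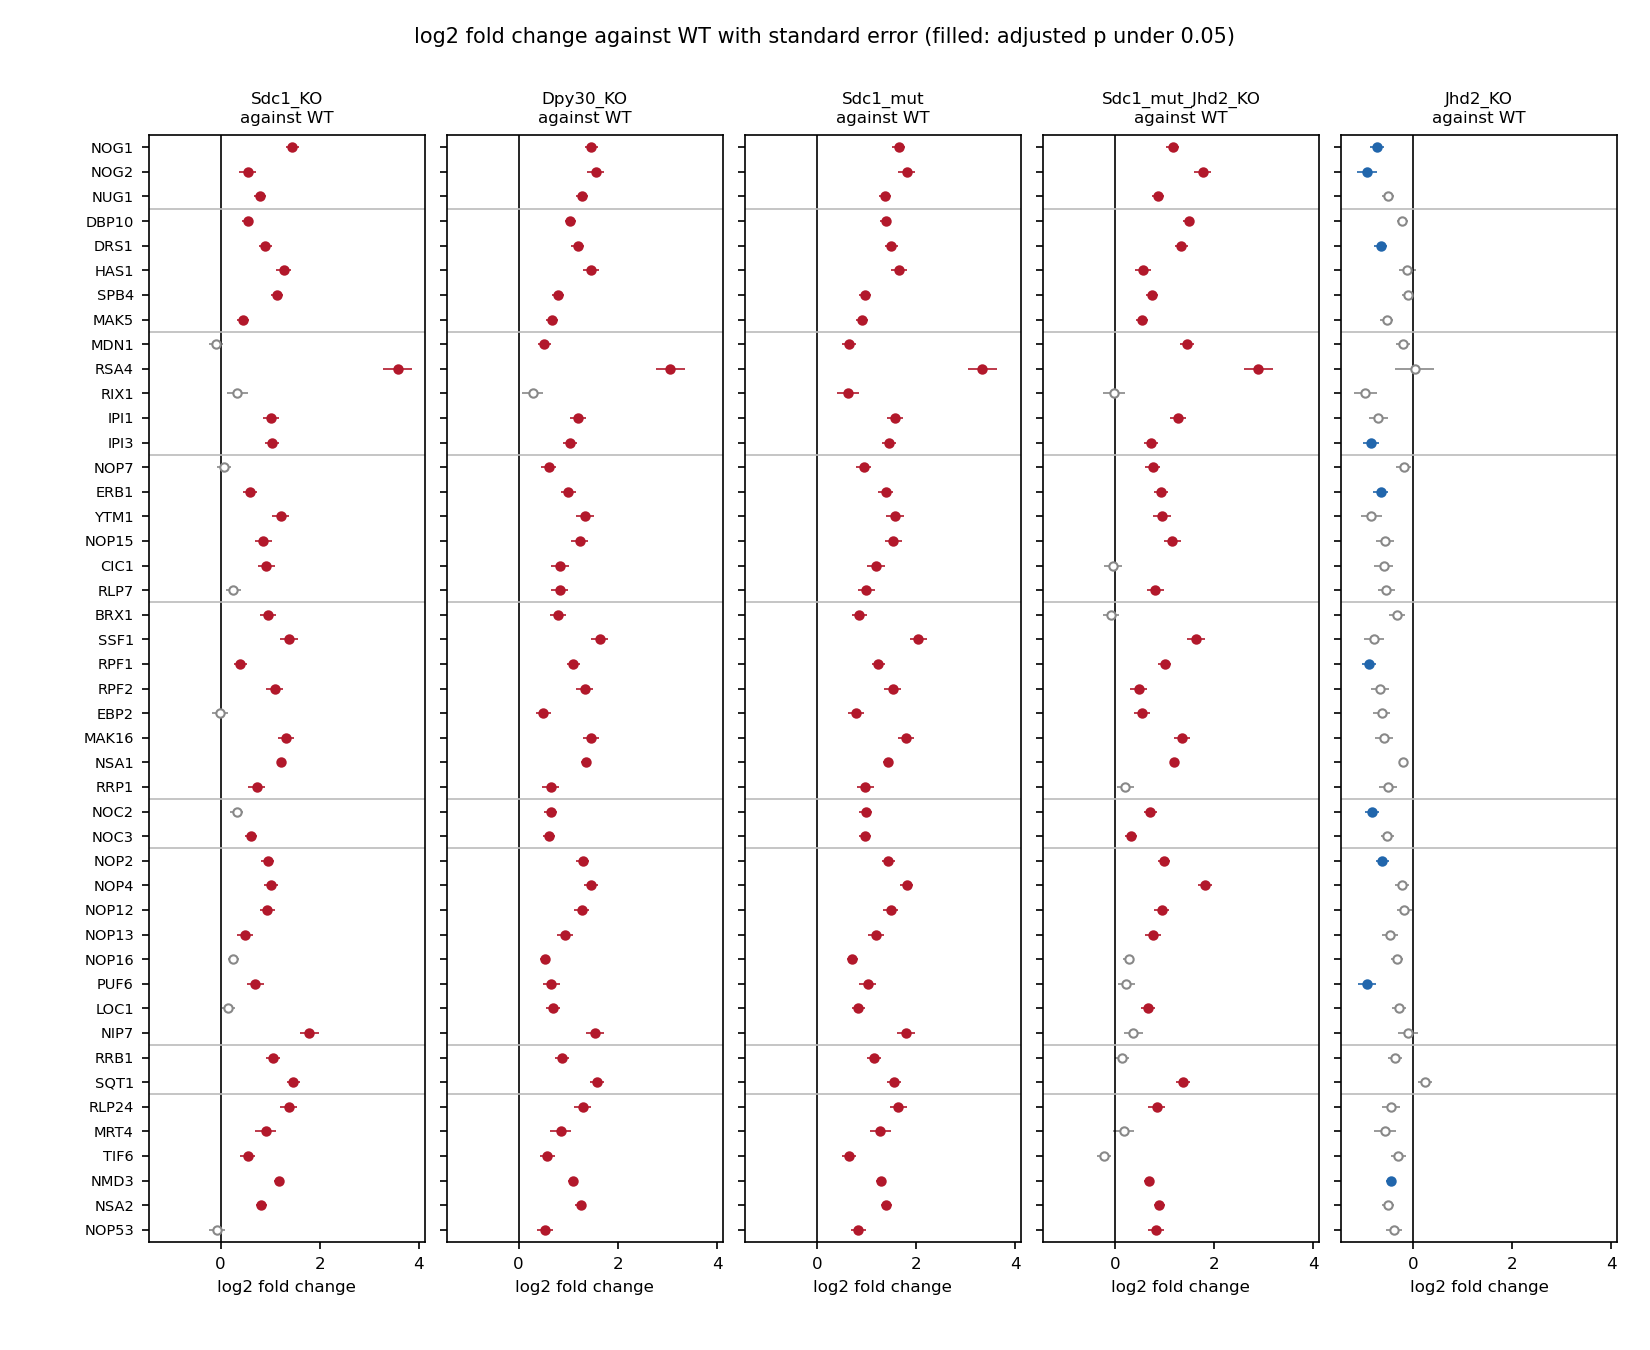
log2 fold change over WT with its standard error for each of the 45 genes in 5 strains, ordered by role, with filled red points called higher, filled blue points called lower and open grey points not called. Filled red points cover the panels of the 4 strains with a changed SDC1, and the 10 filled blue points are all in Jhd2_KO.

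The SDC1 alleles were then compared with each other, since they remove the whole protein, the DPY30 motif or change a residue. Sdc1_mut exceeded Sdc1_KO in 25 members, where 10.1% of all genes were called higher, with a median of 0.46, and no member was lower (11.3% of all genes, with 21.4% called in all). By at least 2-fold only NOG2 was higher (1.3% of all genes, or 3.91% in either direction). Dpy30_KO exceeded Sdc1_KO in 12 members (11.2% of all genes), with a median of 0.21, and none was lower (14% of all genes). No member differed by 2-fold or more (1.73% of all genes were at least 2-fold higher, and 4.76% changed that much in either direction). NOG2 differed most, by 1.26 ± 0.17 in Sdc1_mut and by 0.99 ± 0.17 in Dpy30_KO. NOP53 (0.92 ± 0.16), NOP7 (0.88 ± 0.15), EBP2 (0.81 ± 0.17) and MDN1 (0.74 ± 0.14), all without a call in Sdc1_KO against WT, were among those higher in Sdc1_mut.

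The Sdc1_KO libraries make this comparison uncertain. Replicate 2 lay above replicate 1 in 42 of the 45 genes, by a median of 0.40. Without Sdc1_KO replicate 2, 32 members were higher than WT and 2 lower (MDN1 and NOP53), with a median of 0.63, and without replicate 1, 40 were higher. Dpy30_KO against Sdc1_KO ran from 2 called members without Dpy30_KO replicate 1 to 26 without Sdc1_KO replicate 2. Sdc1_mut against Sdc1_KO ran from 14 without Sdc1_mut replicate 1 to 37 without Sdc1_KO replicate 2. With only the groups compared in the fit, the counts were 2 for Dpy30_KO and 11 for Sdc1_mut. Mitochondrial fragments also separate Sdc1_KO from the other 2 alleles in every library. What part that had in the difference was not tested and cannot be told apart from the allele.

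Sdc1_mut and Dpy30_KO did not differ in any member by the test. edgeR called 0 of the 45, where 0.0157% of all genes was called, and DESeq2 and limma-trend also called 0. The smallest adjusted p of a member by edgeR was 0.7, and 13 members had an unadjusted p under 0.05, as 437 of all 6361 genes did. Yet 44 of 45 fold changes were positive, with a median of 0.27 against 0.01 for all genes, and SQT1 alone was negative (-0.02 ± 0.14). In 37 members both Sdc1_mut libraries lay above both Dpy30_KO libraries, which 24.1% of all genes did.

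Many of these genes were lower in the double mutant than in the point mutant. Against Sdc1_mut, 25 members were lower in the double mutant, where 19.4% of all genes were, and 1 was higher (13.2% of all genes). At least 2-fold, 6 members were called, all lower (3.77% of all genes in either direction, and 2.99% higher). The median was -0.45 against -0.04 for all genes. NIP7 fell most, by 1.43 ± 0.19 (adjusted p = 0.00024), from 71.1 and 65.6 CPM to 23.4 and 27.3 CPM. CIC1 fell by 1.23 ± 0.18, MRT4 by 1.10 ± 0.21, HAS1 by 1.08 ± 0.16, RPF2 by 1.05 ± 0.17 and RRB1 by 1.00 ± 0.14. In none of these 6 did the 2 strains overlap. Both double mutant libraries lay below both Sdc1_mut libraries in 39 of the 45 members and in 39.9% of all genes. The exception was MDN1, which rose by 0.81 ± 0.14 (adjusted p = 0.0011), from 1670 and 1710 CPM to 2970 in both libraries. Without 1 library, the called members numbered 17 (without Sdc1_mut replicate 2 or double mutant replicate 1) to 19.

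The 10 members not called against WT in the double mutant were BRX1, CIC1, MRT4, NIP7, NOP16, PUF6, RIX1, RRB1, RRP1 and TIF6. These 10, like all 45 members, were higher than WT in Sdc1_mut. Their median gene length was 856.5 bp, against 1518 bp for the 35 that stayed above WT. Spearman's rho between gene length and the fold change of the double mutant over Sdc1_mut was 0.35 over the 45 members. It was 0.3 without MDN1 and 0.21 over 5758 protein-coding genes, so the relation is not particular to the members. What part length had in the difference was not tested. NOP4, DBP10 and NOG2 differed little between Sdc1_mut and the double mutant, by 0.02 ± 0.14, 0.10 ± 0.11 and -0.04 ± 0.17, none called.

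Whether JHD2 loss acted differently with and without the point mutation was tested as an interaction. Sdc1_mut libraries held 7 and 2 mitochondrial fragments and double mutant libraries 4 and 2. WT held 24219 and 49799, and Jhd2_KO 22977 and 29372. The lack of mitochondrial fragments thus went with the point mutation in this test, and their parts cannot be told apart. Of the 45 members 3 were called higher (8.39% of all genes) and 3 lower (12% of all genes), with a median of 0.10. At least 2-fold, MDN1 and NIP7 were called (4.56% of all genes in either direction, and 3.19% higher). MDN1 (1.01 ± 0.20, adjusted p = 0.0048), NOG2 and RPF1 were higher, and NIP7 (-1.33 ± 0.28, adjusted p = 0.0065), HAS1 and RRB1 were lower. MDN1 was the only one of the 6 still called whichever of the 8 libraries was left out. NIP7 lost its call without Jhd2_KO replicate 2.

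**Figure D5:**
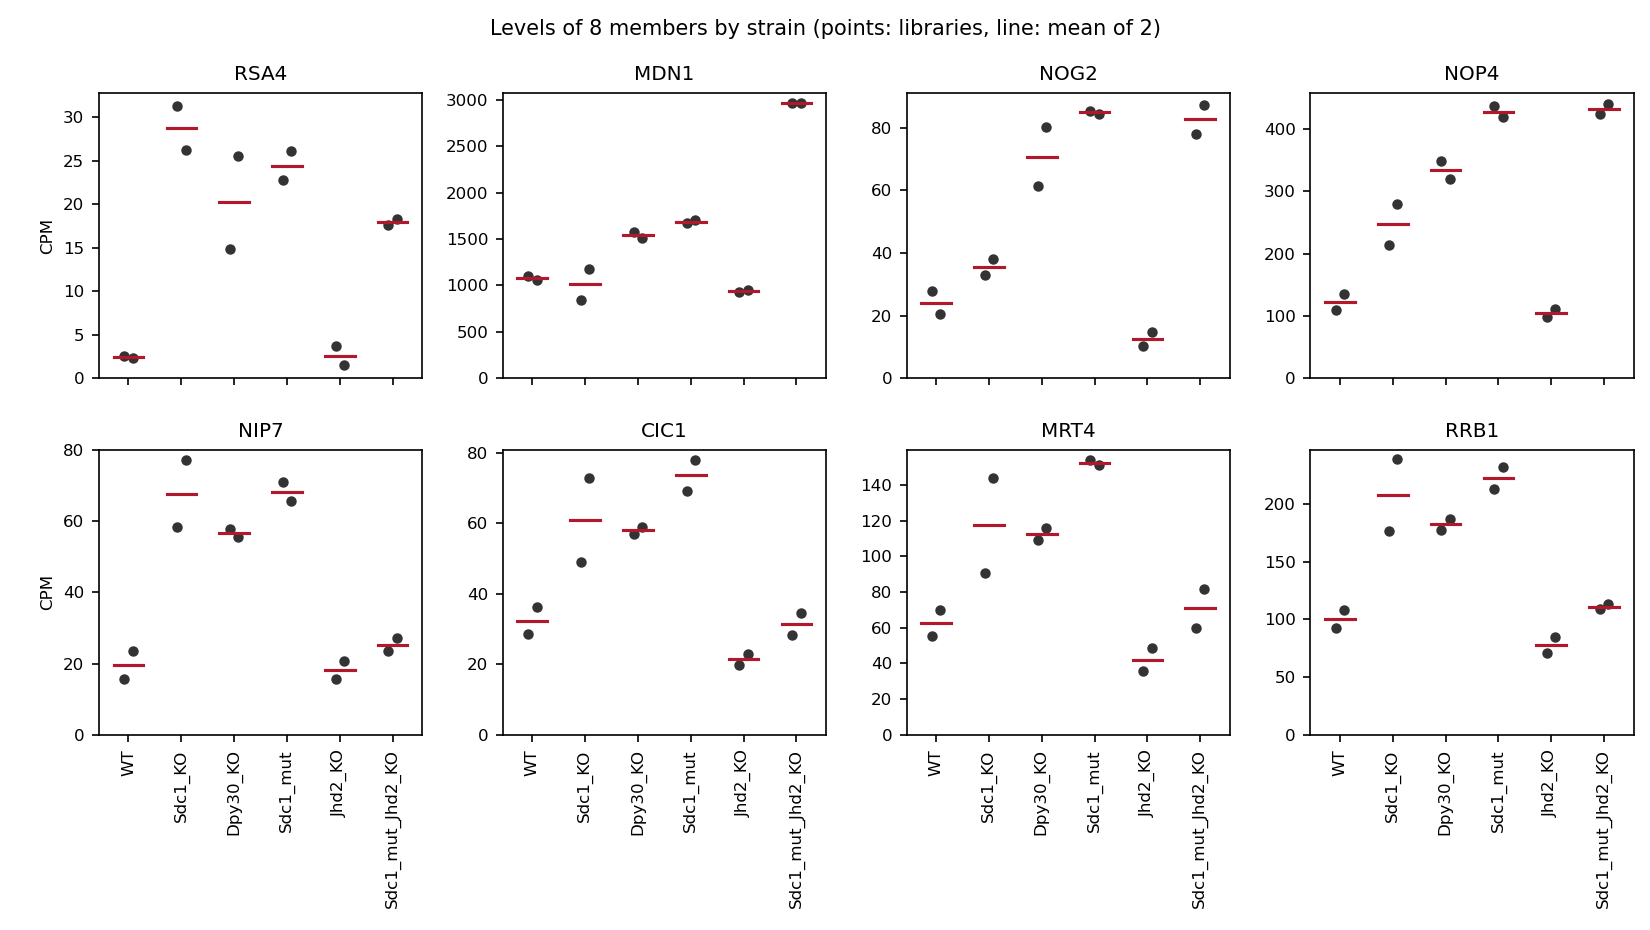
CPM of 8 members in the 6 strains, with points for the 2 libraries and a red line for their mean, on axes that start at 0. RSA4 is high in all 4 strains with a changed SDC1, MDN1 is highest in the double mutant, and NIP7, CIC1, MRT4 and RRB1 are back near WT there.

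Other assembly factors were examined for scale. Of 38 further 60S factors, 31 were higher in Sdc1_KO, 33 in Dpy30_KO, 36 in Sdc1_mut and 29 in the double mutant, and 3 were lower in Jhd2_KO. Of 44 factors of the small subunit, 41, 43, 44 and 42 were higher in the same order, and 10 were lower in Jhd2_KO. The medians in Sdc1_mut were 1.11 and 1.28, beside 1.37 for the members. The only gene of these lists lower in 3 or more strains was REH1, a late cytoplasmic 60S factor, which fell by 0.32 in Sdc1_KO, 0.68 in Dpy30_KO, 0.63 in Sdc1_mut and 0.59 in the double mutant on the log2 scale.

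Promoter letters were then set beside the direction for genes outside the set. Of 419 other protein-coding genes tested with both cores, 58.7% were higher in Sdc1_KO, 58.2% in Dpy30_KO, 62.1% in Sdc1_mut and 57.0% in the double mutant. Of 3704 with neither core, 24.1%, 23.2%, 23.1% and 25.2% were higher. The classes with 1 core lay between, nearer to neither: 33.5%, 31.9%, 31.3% and 32.9% of 683 genes with PAC alone were higher, and 30.7%, 29.1%, 31.1% and 28.6% of 907 with RRPE alone. Lower calls took 9.55%, 12.4%, 12.2% and 17.4% of the genes with both cores and 26.7%, 28.7%, 29.1% and 34.6% of those with neither. In Jhd2_KO, 5.01% of those with both cores were lower, against 0.297% of those with neither. These groups include the other assembly factors named above.

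The genes for the factors' own regulators did not move as 1 group. TOD6, the PAC-binding repressor, had 8.86 and 10.1 CPM in WT, 22.1 and 29.1 in Sdc1_KO, 24.1 and 32.4 in Dpy30_KO, 27.8 and 37.3 in Sdc1_mut, 3.47 and 4.06 in Jhd2_KO and 34.4 and 33.1 in the double mutant. It rose in the 4 SDC1 mutants, by 1.43 ± 0.19, 1.57 ± 0.19, 1.78 ± 0.19 and 1.83 ± 0.19, and fell by 1.32 in Jhd2_KO (adjusted p = 0.023). These are the directions the assembly factors took. DOT6, its paralog, stood at 1500 and 1290 CPM in WT, 481 and 684 in Sdc1_KO, 1010 and 941 in Dpy30_KO, 861 and 935 in Sdc1_mut, 1040 and 1010 in Jhd2_KO and 1180 and 1080 in the double mutant. It fell by 1.26 in Sdc1_KO, 0.52 in Dpy30_KO and 0.64 in Sdc1_mut, and was not called in the double mutant (-0.31) or Jhd2_KO (-0.44). STB3, the RRPE-binding repressor, fell by 0.71, 0.42, 0.54 and 0.61 in the 4 SDC1 mutants and was at -0.13 in Jhd2_KO, not called. SFP1, an activator of the regulon, was called in none of the 5 strains, with fold changes from -0.14 to 0.05. SCH9, a kinase upstream of these repressors, rose in Dpy30_KO (0.37) and in the double mutant (0.28).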

How the data were processed

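RNA of 12 libraries (6 strains, 2 each) was rRNA-depleted and made into directional libraries, per the labels' protocols. The submitters' processing notes name bcl2fastq 2.17.1.14, TopHat, Cufflinks and the build sacCer3. The authors deposited expected counts (fragments per gene) and FPKM. The annotation, the strand setting and the treatment of reads with several matches are not given in the sources used here. No spike-in is named, so levels are relative to the other RNA of a library, and a change in total RNA per cell would not be seen.

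Of 7126 identifiers, 14 marked too deep were left out. Of the expected counts, 97.8% were whole, and the rest were rounded. edgeR 4.0.16 (R 4.3.3; TMM, filterByExpr, quasi-likelihood) fitted the 6 groups in 1 model over 6361 genes, with a common biological coefficient of variation of 10.2%. Standard errors are the log2 fold change over the square root of F. The steps were tested on simulated data. Alternatives used DESeq2 1.42.0 and limma 3.58.1, the latter also on log2(FPKM + 1). Names and promoters came from RefSeq R64, with 6046 identifiers matched by locus tag and 23 by symbol, and copies were searched with blastn 2.17.0.

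The members and lists were chosen with earlier results of these data known. Library values are printed for the members with the largest and smallest mean absolute change of each role, for those called lower than WT, and for those called between mutants or in the interaction with a log2 change of at least 1. All other members have at least 1 value.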

Additional observations from a re-analysis of the deposited data

Results flagged for a closer look

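For 6 members, the log2 fold change of JHD2 loss in the point mutant differed from that in WT (interaction term, edgeR quasi-likelihood test, Benjamini-Hochberg over 6361 genes). Among the 45, 3 were higher and 3 lower, where 8.39% of all genes were called higher and 12% lower (20.4% in all). The members were thus called no more often than genes at large. Both strains with the point mutation also lacked nearly all mitochondrial fragments, so in this test the parts of mutation and lack cannot be told apart. The difference was 1.01 for MDN1 (adjusted p = 0.0048), 0.88 for NOG2 (adjusted p = 0.032) and 0.64 for RPF1 (adjusted p = 0.035). It was -1.33 for NIP7 (adjusted p = 0.0065), -0.96 for HAS1 (adjusted p = 0.013) and -0.63 for RRB1 (adjusted p = 0.04). With 1 library left out, MDN1 ran from 0.99 to 1.04 and NIP7 from -1.65 to -1.07. NOG2 ran from 0.64 to 1.16, HAS1 from -1.14 to -0.75, RPF1 from 0.51 to 0.75 and RRB1 from -0.76 to -0.51, each losing its call without at least 1 library.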

How the results depend on the processing

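Counts of called members and of all called genes are given in that order. At least 2-fold changes numbered 17 and 644 in Sdc1_KO, 25 and 784 in Dpy30_KO, 30 and 791 in Sdc1_mut, 0 and 16 in Jhd2_KO and 13 and 1026 in the double mutant. Between mutants they numbered 0 and 303 for Dpy30_KO against Sdc1_KO, 1 and 249 for Sdc1_mut against Sdc1_KO, 6 and 240 for the double mutant against Sdc1_mut, and 2 and 290 for the interaction. With only the groups compared in the fit, the counts were 29 and 2036 for Sdc1_KO, 30 and 623 for Jhd2_KO and 13 and 2130 for the interaction. They were 2 and 500 for Dpy30_KO against Sdc1_KO and 11 and 454 for Sdc1_mut against Sdc1_KO. For Sdc1_mut against Dpy30_KO they were 0 and 17. For Jhd2_KO, DESeq2 called 24 and 270, and limma on log2(FPKM + 1) called 5 and 53. For Sdc1_mut against Dpy30_KO, DESeq2 called 3 genes and limma-trend 2. The causes were not tested.

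With 1 library left out, the counts ran from 31 to 40 and 2292 to 3572 for Sdc1_KO, 38 to 44 and 2522 to 2746 for Dpy30_KO, 2511 to 2729 genes for Sdc1_mut with 44 members each time, 0 to 5 and 5 to 26 for Jhd2_KO, and 31 to 35 and 3134 to 3231 for the double mutant. Between mutants they ran from 2 to 26 and 804 to 2236 for Dpy30_KO against Sdc1_KO, 14 to 37 and 646 to 2142 for Sdc1_mut against Sdc1_KO, 17 to 19 and 1100 to 1450 for the double mutant against Sdc1_mut, and 2 to 8 and 580 to 1068 for the interaction. For Sdc1_mut against Dpy30_KO they were 0 members and 1 to 2 genes. RIX1 in Dpy30_KO against Sdc1_KO was -0.06, and ran from -0.45 without Sdc1_KO replicate 1 to 0.52 without Sdc1_KO replicate 2. It was the only member value that changed sign where either fit made a call, while several values without a call changed sign. Among the 450 member values, leaving out the mitochondrial genes moved no call, and leaving out the expression filter added 1 (NOP13, double mutant against Sdc1_mut).

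Correlations of replicate differences between groups ran from -0.129 to 0.153 over 15 pairs of groups, 3 of them over 0.1. Such weak values cannot settle whether replicate numbers pair the libraries. Replicate 2 was above replicate 1 in 40 members in WT, 42 in Sdc1_KO, 38 in Jhd2_KO and 36 in the double mutant. In Dpy30_KO it was above in 19 members, and in Sdc1_mut in 21. A replicate block gave 19 called members and 164 genes in Jhd2_KO and ended no member's call. On FPKM, 24.5% of the Jhd2_KO calls were higher, against 46.2%, and it was 45.5% against 55.5% in Sdc1_KO, 45.6% against 53.1% in Sdc1_mut and 47.1% against 52.0% in Dpy30_KO. The shares were 51.5% against 40.5% for the double mutant against Sdc1_mut and 56.9% against 41.2% for the interaction. With 2 libraries per strain, 1 library decides many of the weaker calls, and RSA4, with 55 and 66 WT fragments, has the least depth.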

Other observations

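In the 3 single SDC1 mutants the median rise was smallest in the members of highest level. By FPKM in Jhd2_KO, a strain outside these comparisons, the 15 lowest members (1.42 to 30.6 FPKM), the 15 in the middle (31.3 to 59.4 FPKM) and the 15 highest (60.6 to 371 FPKM) had median log2 fold changes of 1.04, 0.95 and 0.50 in Sdc1_KO. The medians were 1.20, 1.25 and 0.80 in Dpy30_KO and 1.58, 1.43 and 0.95 in Sdc1_mut, and 0.75, 0.93 and 0.76 in the double mutant. In Sdc1_KO, 14, 14 and 8 of the 15 were called higher. Across genes, Spearman's rho between level and fold change in Sdc1_KO was -0.55 over the 45 members and -0.34 over 5758 protein-coding genes, a description across genes that share their libraries.

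The 4 genes beside RSA4 were looked at after its values were seen (edgeR, adjusted p over all genes). SSK22, whose gene overlaps the RSA4 promoter window, rose by 1.55 in Sdc1_KO, 1.04 in Dpy30_KO, 0.75 in Sdc1_mut and 1.15 in the double mutant, with adjusted p of 0.00024 or less, and was at -0.05 in Jhd2_KO. SOL2 rose by 1.26 in Sdc1_KO (adjusted p = 1.6e-06) and was between -0.01 and 0.25 in the other strains, not called. CPR4 rose by 0.92 in Sdc1_KO and fell by 0.45 in Dpy30_KO, 0.36 in Sdc1_mut and 0.28 in the double mutant. IMG2 rose by 0.57 in Sdc1_KO, fell by 0.62 in the double mutant and was not called in the other strains. All 4 neighbours thus rose in Sdc1_KO, where RSA4 had its largest rise, and only SSK22 rose in the other SDC1 mutants. What part a rise of the whole region had in the Sdc1_KO value of RSA4 was not tested.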
